A study of Mus musculus with 10 samples.

Results

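Macrophages taken from mouse adipose tissue were compared with bone marrow-derived macrophages (BMDM), which are grown in culture from marrow precursors. The comparison used 3 of the 10 bead arrays of the study, namely the 2 arrays labelled as untreated adipose macrophages and the array labelled as untreated BMDM. Members were all probes with a detection p-value under 0.01 on at least 1 of these 3 arrays, the detection p-value being the deposited measure of how far a probe stood above the array's negative controls. The rule took 13856 of the 46632 probes on the array. With 1 probe kept per gene, these became 10989 transcripts out of 12845 tested over the whole study, of which 8109 were named genes and 2880 were probes without a gene symbol.

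All mice were described as male C57BL/6, an inbred strain, and were 8 to 10 weeks old. No mutation, transgene or agent was recorded for any group, and the labels say of neither group how its cells were sorted or whether animals were pooled. The adipose macrophages had 2 arrays, and the BMDM, kept for 7 days with the growth factor M-CSF, had 1. The labels do not state whether the adipose arrays came from separate animals, so the p-values cover only array-to-array spread, which could be technical. The BMDM had no replicate. Their spread was assumed to equal that of the 3 groups with 2 arrays, which leaves the replicate error of the BMDM values unmeasured. The other 7 arrays, from peritoneal, alveolar, splenic and intestinal macrophages and Kupffer cells of untreated mice, served as context.

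Adipose tissue macrophages live among adipocytes, stromal cells and vessels, where they clear dying cells and lipid, and many of them carry lectins and scavenger receptors of resident, perivascular macrophages. BMDM are the standard culture model of a macrophage, produced by M-CSF, the factor that keeps macrophages alive and lets their precursors divide. A comparison of the 2 therefore sets a tissue population against cultured cells that have never been in that tissue.

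Levels are given as log2 normalized signal, on which a step of 1 is a 2-fold change, and the adipose value is the mean of 2 arrays. Levels are compared between arrays for the same probe and never between genes, since probes differ in brightness. Differences are adipose minus BMDM, and a gene was called when limma's p-value stayed under 0.05 after Benjamini-Hochberg adjustment over the 12845 transcripts. The lowest level of a detected probe was 5.83 and 5.88 on the adipose arrays and 6.17 on the BMDM array. Where a gene was not detected on one side, the fold change is a bound against that lowest level.

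Before any result, 2 properties of the arrays bear on every value. The adipose arrays had a median raw signal of 166.5 and 165.1, against 107.9 on the BMDM array, so the 2 groups lay in different brightness sets. Only the peritoneal pair had an array in each set (99.23 and 135.7), so a fit with the set as a block rests on that pair, and no comparison within a set was possible. More probes were detected on the adipose arrays (26.4% and 25.9%) than on the BMDM array (23.7%), and the number of arrays limits the precision.

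The sex-linked genes were the other property. Xist, the RNA that coats the inactive X chromosome in female cells, was at 5.00 and 4.96 on the adipose arrays, below detection, against 9.69 on the BMDM array, where it was detected. It was not detected on any of the other 7 arrays either. Eif2s3y, a Y-linked gene, showed the reverse, at 8.34 and 8.16 on the adipose arrays and 4.80, not detected, on the BMDM array. Kdm5d, also on the Y chromosome, was at 5.84 and 6.28 on the adipose arrays and 4.56, not detected, on the BMDM array. Its probe lay close to the detection limit too, and was not detected on the peritoneal, alveolar and Kupffer arrays, which were also labelled male. The probe for Uty, also Y-linked, stayed close to its detection limit, at 5.38 and 5.47 on the adipose arrays, below detection, and 6.18 on the BMDM array, just detected. The BMDM array thus went against its male label, and sex cannot be told apart from the comparison because this is the only BMDM array. Among named members on the X chromosome, 62 of 226 were called higher in adipose macrophages and 44 lower (27.4% and 19.5%), against 2220 and 1829 of 7875 on other chromosomes (28.2% and 23.2%). With X and Y genes left out of the fit, a step added after Xist had been seen, 3196 transcripts were higher and 2453 lower, against 3256 and 2496 with them.

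Macrophage genes were present in both groups. Of 17 pan-macrophage markers on the array, 17 were detected on the BMDM array and 16 on both adipose arrays, the exception being Itgam, an integrin chain of myeloid cells, at 5.74 and 6.03 against 7.46 on the BMDM array. Adgre1, a defining surface marker of mouse macrophages, was at 12.72 and 12.73 on the adipose arrays and 12.71 on the BMDM array. The summed signal of the 17 genes was 142540 and 149240 on the adipose arrays and 163170 on the BMDM array. Mertk, a receptor for dying cells, was called higher in adipose macrophages by 1.92 (SE 0.26, adjusted p = 0.0011). Fcgr1, an IgG receptor, and Cx3cr1, the fractalkine receptor, were called lower, by -1.42 and -1.47.

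Markers of other cell types differed between the groups. Adiponectin (Adipoq), made by adipocytes, was at 8.98 and 9.09 on the adipose arrays and 4.97, not detected, on the BMDM array. Of 14 adipocyte markers on the array, 5 were detected on the adipose arrays and none on the BMDM array, with a summed signal of 1851 and 1990 against 141.3. Lep, Plin1 and Slc2a4, further defining adipocyte genes, were not detected on any of the 3. Decorin (Dcn), a matrix protein of fibroblasts, was at 11.46 and 11.73 on the adipose arrays and 4.62, not detected, on the BMDM array. Of 13 stromal markers, 5 were detected on both adipose arrays and the summed signal was 5012 and 5776 against 1330, the only one detected on the BMDM array being Gsn, whereas Col1a2, Col3a1 and Lum were not detected on any of the 3 arrays.

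Endothelial markers such as Cldn5 and Gpihbp1 were also called higher in adipose macrophages, 8 of the 11 detected. Over all members, 29.6% were called higher and 22.7% lower. The summed signal of the 11 was 3571 and 3674 against 1101, while Tek, Tie1 and Sox17 were not detected. Against the mean of the other 5 tissues, 5 of the 11 were called higher in adipose macrophages and 3 lower. The dendritic cell genes Cd209a (9.09 and 9.23 against 4.82) and Zbtb46 (9.62 and 9.19 against 5.41) were called higher as well, 5 of 6 in that list, with a summed signal of 3275 and 2839 against 334.9. Flt3, Xcr1, Clec9a and Ccr7, which define dendritic subsets, were not detected on these arrays. Haemoglobin alpha (Hba-a1) was at 12.32 and 12.24 against 4.75 on the BMDM array, where it was not detected, and the beta probes for Hbb-bt and Hbb-bs, near-identical copies that probes may not separate, were high on the same arrays. The B cell gene Cd79b was called higher at 8.81 and 8.86 against 7.25, while Ms4a1 and Pax5 of B cells were not detected. Among neutrophil genes, Retnlg was at 7.42 and 7.72 against 4.81, not detected on the BMDM array, and at least 2.63-fold higher. Csf3r was called higher by 0.74 and S100a8 lower by -1.80, and Mpo, Elane and Ngp were not detected. The mesothelial gene Upk3b, at 6.71 and 6.71 against 4.71, was called higher, and Cd3e, Cd3d and Cd3g of T cells were not detected on the 3 arrays. The part of these other cells in the differences below was not tested, and in bulk RNA fewer cells of a type and less RNA per cell cannot be told apart.

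**Figure D1:**
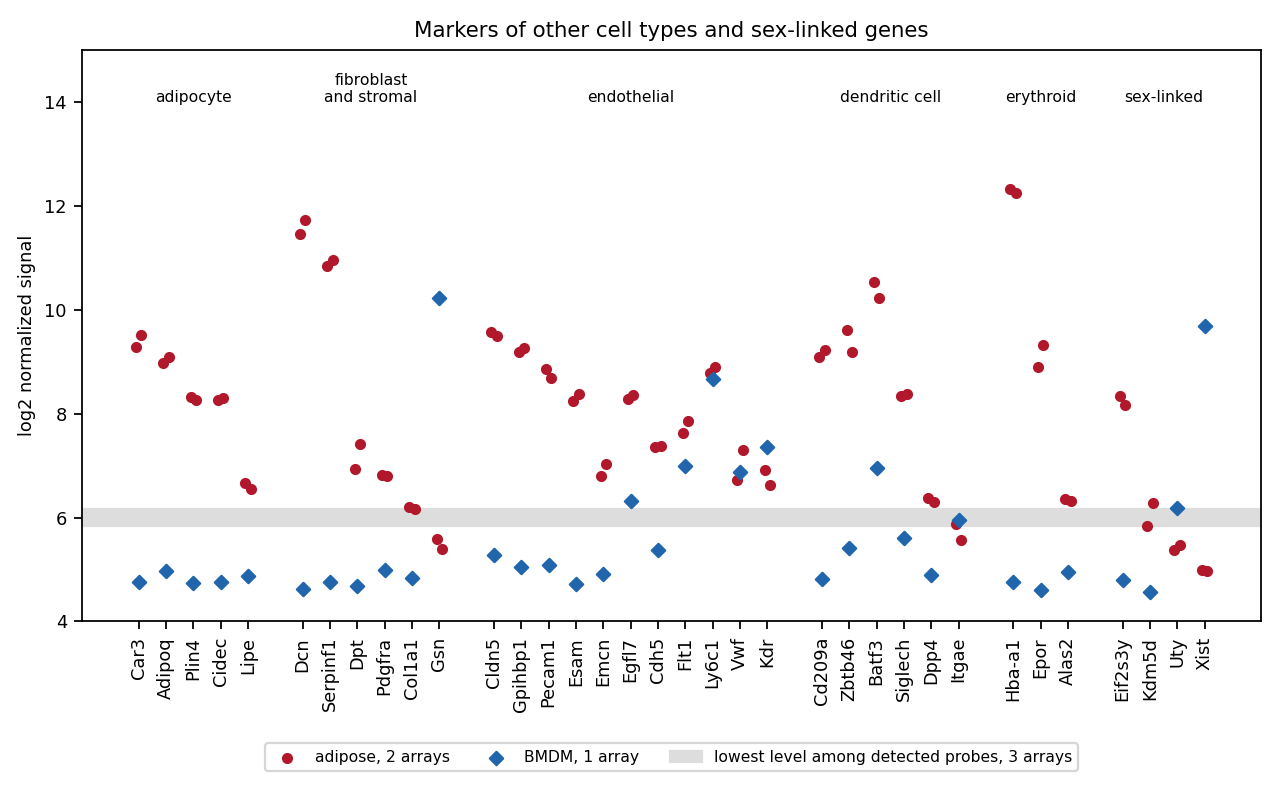
Log2 normalized signal (vertical axis) of the detected markers of 5 other cell types and of the sex-linked genes, with a red point for each of the 2 adipose arrays and a blue diamond for the BMDM array. The grey band spans the lowest level of a detected probe on the 3 arrays, 5.83 to 6.17, and most adipocyte, stromal, endothelial, dendritic and erythroid markers lie above it on the adipose arrays and below it on the BMDM array, whereas Xist lies the other way.

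Differences between the groups were widespread. Of the 10989 members, 3256 (29.6%) were called higher in adipose macrophages and 2496 (22.7%) lower, and 2370 (21.6%) and 1707 (15.5%) of them by at least 2-fold. The median difference over all members was 0.11. The adipose arrays agreed closely with each other. Over the 7957 members detected on all 3 arrays the SD of their log2 difference was 0.21 and none was more than 2-fold apart, against an SD of 1.13 for adipose minus BMDM. Across these transcripts, which are not independent, r was 0.994 between the adipose arrays and 0.825 and 0.830 between each of them and the BMDM array. The arrays of the adipose pair fell on opposite sides of the BMDM array for 746 members, and none of those was called. That was largely given in advance, since the mean of such a pair lies close to the BMDM value.

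Among the 7957 members detected on all 3 arrays, 1786 were higher in adipose macrophages and 1793 lower, with a median difference of -0.02. A further 1600 were detected on both adipose arrays but not on the BMDM array, and 669 on the BMDM array alone. For these the filter itself largely sets the direction. Leaving out either adipose array lowered both counts by similar amounts, with the fewest lower calls on dropping adipose replicate 1. Without it 2279 transcripts were higher and 1638 lower, and without adipose replicate 2 the counts were 2337 and 1701. Leaving out either peritoneal array instead gave 4142 higher and 3335 lower. With the brightness set as a block the counts were 3178 and 2495, of which 2618 and 1932 were calls made without the block too.

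**Figure D2:**
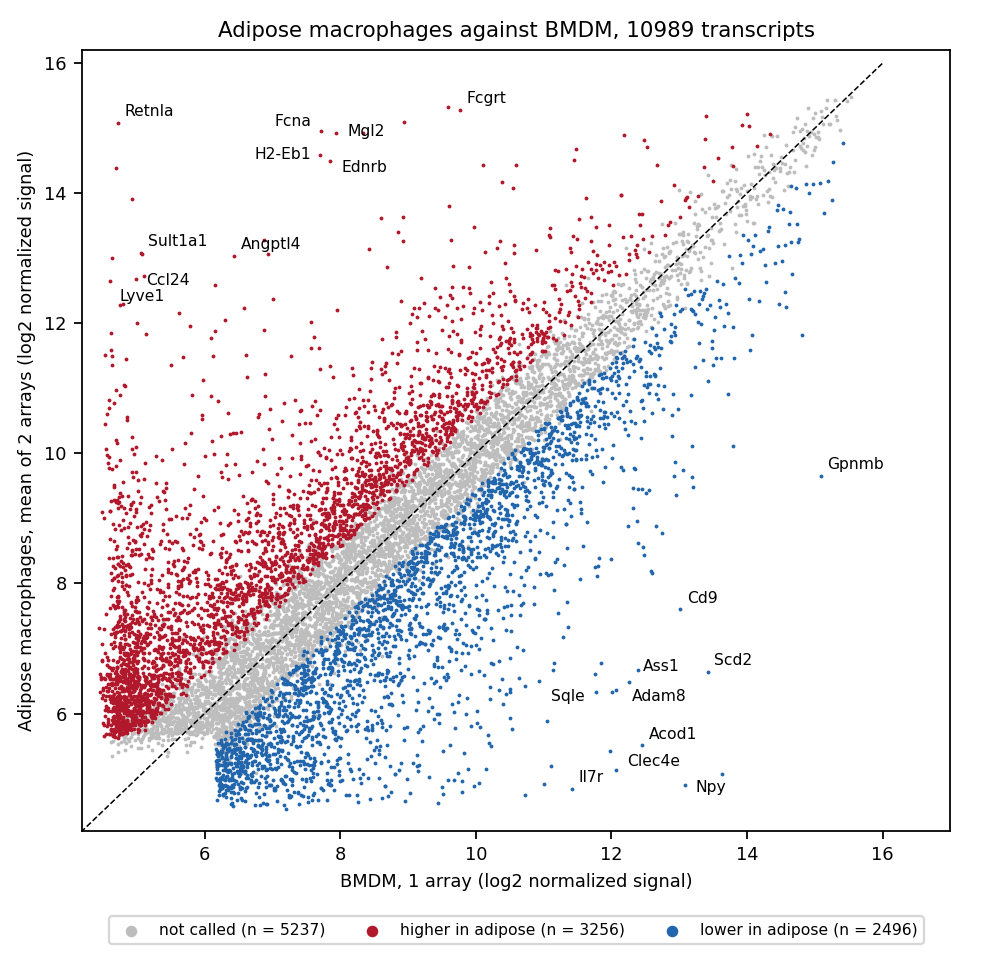
Each point is 1 of 10989 transcripts, with the mean log2 normalized signal of the 2 adipose arrays on the vertical axis and the BMDM array on the horizontal axis. Red points were called higher in adipose macrophages (3256), blue points lower (2496) and grey points were not called (5237), and the dashed line marks equal levels. The empty corner at the lower left follows from the rule that a transcript had to be detected on at least 1 of the 3 arrays.

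Among genes detected on all 3 arrays, the highest differences were those of Fcna and Mgl2. Fcna, which encodes ficolin A, a lectin that starts complement activation, was at 15.02 and 14.90 on the adipose arrays and 7.71 on the BMDM array, 152-fold higher (difference 7.25, SE 0.19, adjusted p = 3.8e-06). Mgl2, a galactose-binding C-type lectin, was at 14.86 and 14.98 against 7.94, or 126-fold higher (6.98, SE 0.20). In both cases the adipose arrays differed by far less than the distance to BMDM. On the other 7 arrays Mgl2 lay between 5.64 and 11.92, below both adipose arrays, whereas Fcna reached 15.14.

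Ednrb, the endothelin receptor B, was at 14.40 and 14.59 on the adipose arrays and 7.85 on the BMDM array, 100.1-fold higher. Angptl4, a secreted inhibitor of lipoprotein lipase, was at 12.95 and 13.12 against 6.43, 97.0-fold higher. Both sizes are those of the brightest probe, and other probes gave smaller differences, 2.65 for Ednrb and 2.79 and 1.30 for Angptl4. Ltc4s, the enzyme that makes leukotriene C4, was at 13.28 and 13.29 against 6.88, 84.9-fold higher. Tns1, a focal adhesion protein, Selenbp1, a selenium-binding protein, and Fcgrt, the neonatal Fc receptor that recycles IgG, were higher by 5.75, 5.64 and 5.51. The adjusted p was 3.8e-06 for each of these 6 genes.

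The lowest differences were led by a desaturase. Scd2, which introduces double bonds into fatty acids, was at 6.65 and 6.63 on the adipose arrays and 13.42 on the BMDM array, 109.8-fold lower (difference -6.78, SE 0.18, adjusted p = 3.8e-06). Ass1, argininosuccinate synthase of the citrulline-arginine cycle, was at 6.48 and 6.50 against 12.27, 54.8-fold lower. Adam8, a membrane metalloprotease, was at 6.34 and 6.38 against 12.07, 52.3-fold lower. On these 3 probes both adipose arrays lay close to the lowest detected level.

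Kcnn4, a calcium-activated potassium channel, differed by -5.68 (SE 0.44), and Sqle, squalene epoxidase of cholesterol synthesis, by -5.45 (SE 0.27). Gpnmb, a transmembrane glycoprotein of phagocytes, was at 9.56 and 9.75 by its brightest probe, against 15.08 on the BMDM array, 43.2-fold lower. Its other probes were also lower. One was at 7.42 and 7.51 against 14.95, and another, not detected on either adipose array, at 4.71 and 4.80 against 12.63. Cd9, a tetraspanin, was at 7.57 and 7.64 against 13.01. Pdpn (podoplanin), Zranb3 (a DNA annealing helicase), Ube2l6 (the conjugating enzyme for ISG15), Acot7 (an acyl-CoA thioesterase) and Tmem158 completed the 12 lowest, with differences between -5.15 and -4.43.

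Adipose macrophages and BMDM were each also set against the mean of the other 5 tissues in the same fit, so both comparisons share those arrays. Against that mean, 25.0% of members were called higher and 15.2% lower in adipose macrophages, and 26.8% higher and 26.4% lower in BMDM. The 24 genes above were chosen for extreme values on the adipose and BMDM arrays, so their differences from the other tissues are a description only. Of the 12 highest, 12 were called higher in adipose macrophages than in the other tissues and 11 were called lower in BMDM. Of the 12 lowest, 12 were called higher in BMDM, while in adipose macrophages 5 were called lower and 2, Pdpn and Tmem158, higher.

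**Figure D3:**
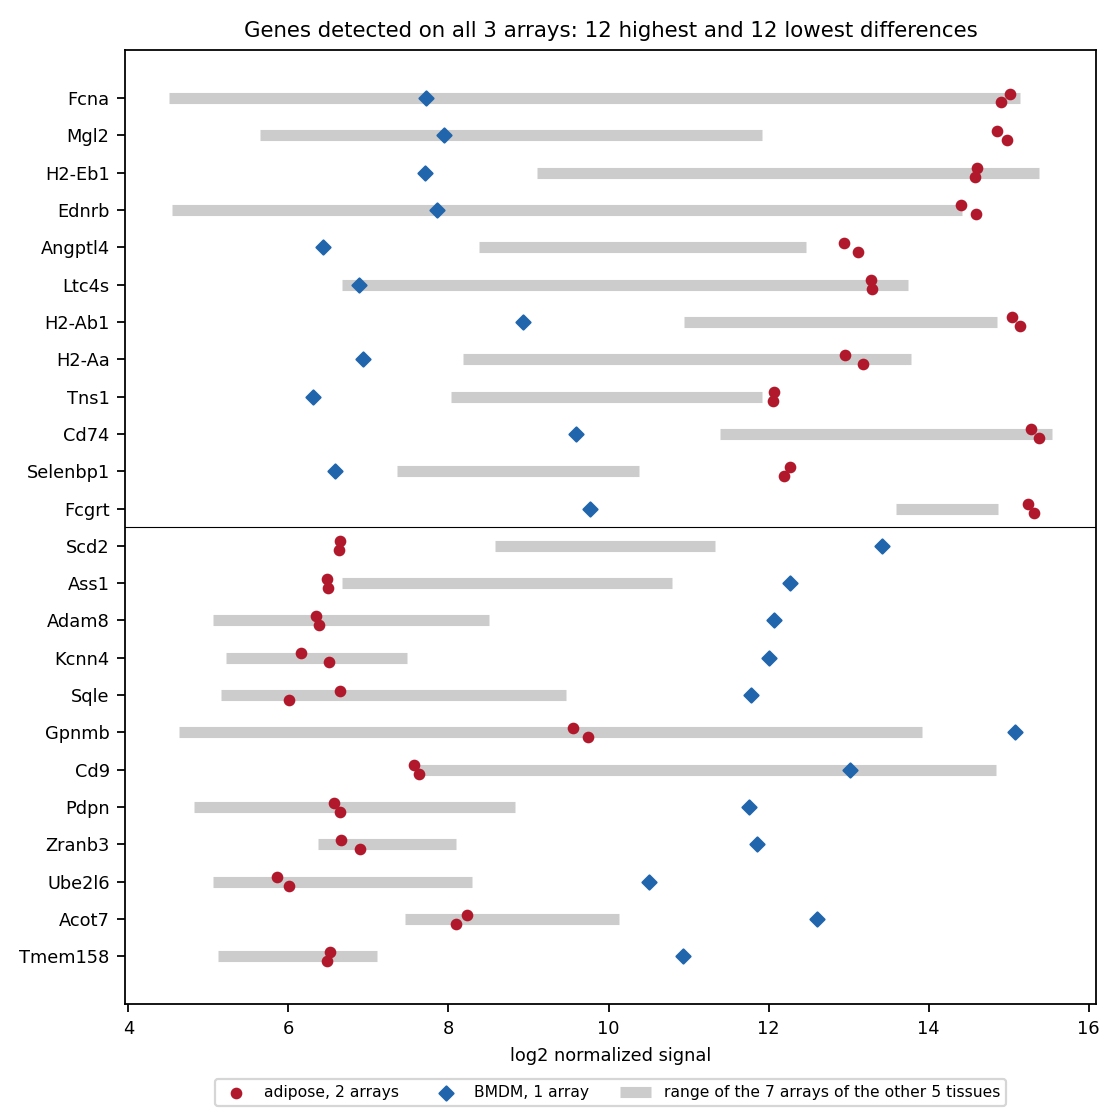
Log2 normalized signal (horizontal axis) of the 12 genes with the highest and the 12 with the lowest difference among those detected on all 3 arrays. Red points are the 2 adipose arrays, blue diamonds the BMDM array, and grey bars the range of the 7 arrays of the other 5 tissues. The genes were chosen for their difference on the adipose and BMDM arrays, and in the lower block the diamond lies right of every grey bar except that of Cd9.

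Some genes were detected on one side only. Retnla, a secreted resistin-like protein that IL-4 induces in macrophages, was at 15.14 and 15.02 on the adipose arrays and 4.73, not detected, on the BMDM array, at least 480.05-fold higher (adjusted p = 1.5e-06). It was also above every other tissue, whose arrays lay between 4.83 and 13.12. Ccl24, an eotaxin that attracts eosinophils, was at 12.68 and 12.70 against 4.98, at least 91.6-fold higher. Lyve1, the hyaluronan receptor of lymphatic endothelium and perivascular macrophages, was at 12.68 and 12.63 against 4.61, at least 89.6-fold higher. Clec10a, the lectin encoded beside Mgl2, was at 12.60 and 12.58 against 6.15, at least 85.5-fold higher. Sult1a1, a sulfotransferase that acts on phenols, was at least 121-fold higher, and on the other 7 arrays it was detected throughout, at 9.24 to 12.81.

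In the other direction, Npy, the neuropeptide Y gene, was at 4.82 and 4.99 on the adipose arrays, not detected, and 13.08 on the BMDM array, at least 149.97-fold lower (adjusted p = 9.8e-06). It was detected on none of the other 7 arrays either. Acod1, the enzyme that makes itaconate, was at 5.80 and 5.22 against 12.45, at least 96.5-fold lower. Clec4e, the Mincle receptor for glycolipids, was at 5.20 and 5.06 against 12.07, at least 74.1-fold lower. Gpr84 (a receptor for medium-chain fatty acids), Il7r (the IL-7 receptor chain), Il1rn (the IL-1 receptor antagonist) and Dusp4 (a MAP kinase phosphatase) were lower by at least 69.7-, 47.4-, 35.6- and 29.4-fold. Gsn, which encodes the actin-severing protein gelsolin, was at least 20.6-fold lower by its brightest probe, but its probes were called in opposite directions, the only such case among the 50 of 162 named genes with over 1 detected probe.

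Gene groups are described next, by the number of detected members called in each direction, to be read against 29.6% of all members called higher and 22.7% called lower. A list member had to be detected on 1 of the 3 arrays to be counted, so genes high in a single group passed because of that group. Medians are of the log2 difference, against 0.11 for all members.

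**Figure D4:**
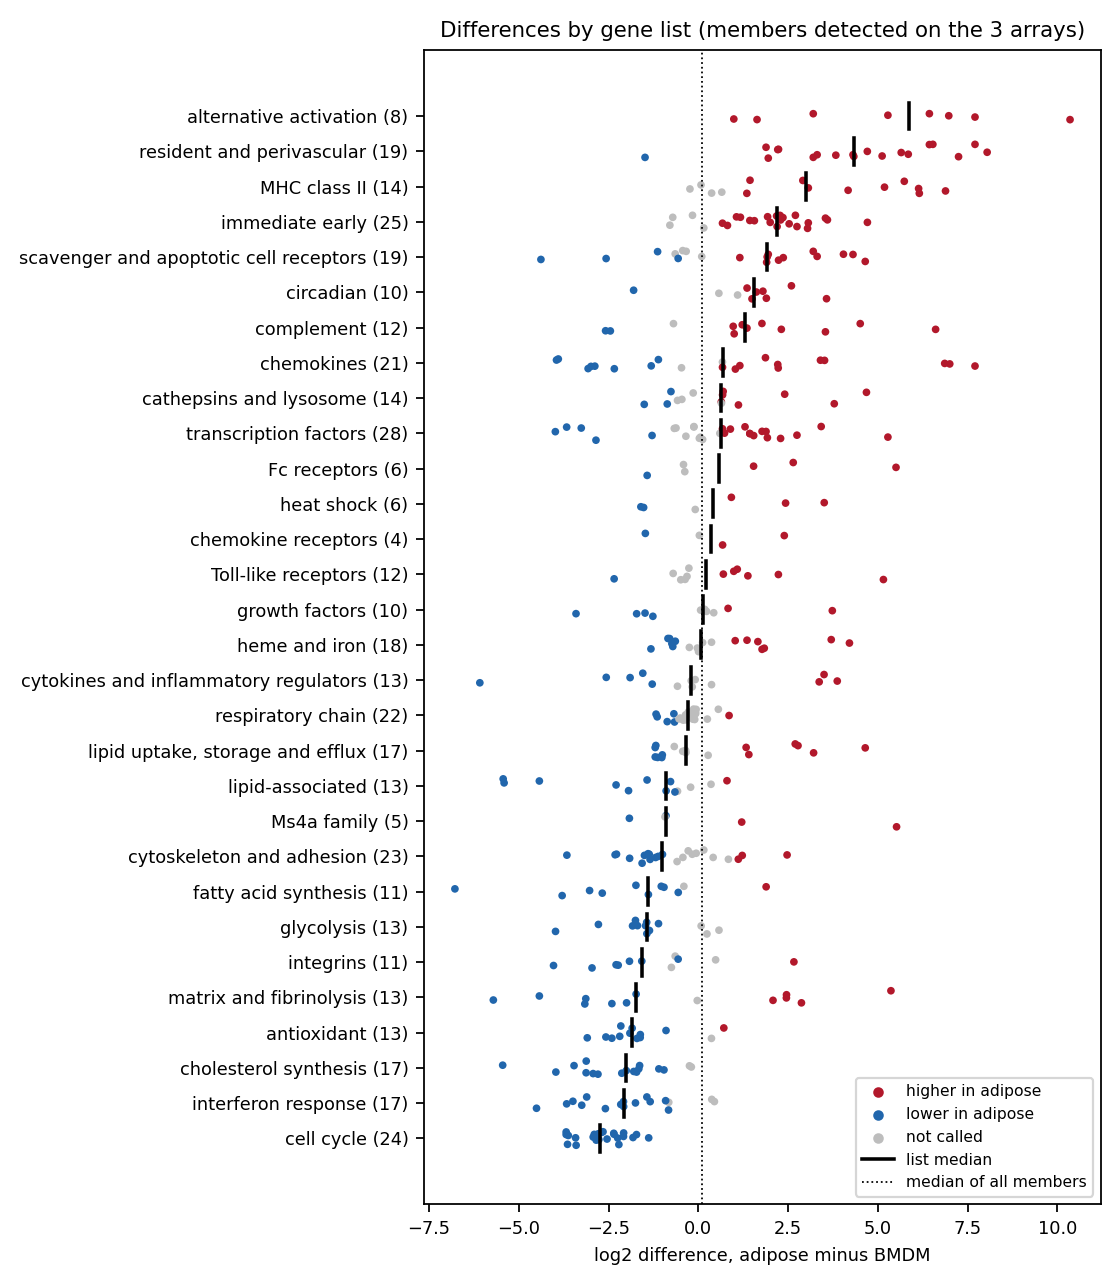
Log2 difference, adipose minus BMDM (horizontal axis), of each detected gene in 30 functional lists, ordered by their median (black bar), with the number of detected members in brackets. Red points were called higher in adipose macrophages, blue lower and grey not called, and the dotted line is the median of all members, 0.11. Alternative activation (median 5.86) and resident or perivascular genes (4.33) lie at the top, cell cycle genes (-2.73) at the bottom.

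Genes of resident and perivascular macrophages were mostly higher in adipose macrophages. All 19 on the array were detected on both adipose arrays and 10 on the BMDM array. Of the 19, 18 were called higher in adipose macrophages and 1, Igf1, lower, with a median of 4.33, or 3.83 with undetected genes at their bound. Cd209b, Cd209d and Cd209g, lectins of the SIGN family whose sequences are closely related, were higher by at least 63.6-, 20.2- and 12.4-fold. Folr2, a folate receptor, was at 14.39 and 14.47 against 10.60, 14.2-fold higher. Timd4, a phosphatidylserine receptor, was at 9.14 and 9.38 against 4.95, at least 8.49-fold higher, and Cd163, the haemoglobin scavenger, at 8.03 and 8.17 against 4.79, at least 3.80-fold higher. Hpgd, which inactivates prostaglandins, was at least 36.3-fold higher. For 14 of the 19 both adipose arrays stood above all other 8 arrays, against 9.59% of all members. Igf1, a growth factor, was at 10.96 and 11.16 against 12.54 on the BMDM array.

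The alternative activation genes, which IL-4 and IL-13 switch on in macrophages, were called higher in 8 of 8 detected, out of 14 on the array, with a median of 5.86, or 5.05 with bounds. Besides Retnla, Mgl2, Clec10a and Ccl24, these were Mrc1, the mannose receptor, at 14.65 and 14.69 against 11.47, Irf4, a transcription factor of this programme, at 9.89 and 9.83 against 4.58, at least 12.9-fold higher, Il4ra and Socs2. Clec10a, Mrc1 and Ccl24 belong to the resident list as well. Arg1, Chil4, Ccl17, Ccl22, Pdcd1lg2 and Alox15, also of this list, were not detected on any of the 3 arrays. For 6 of the 8 the adipose arrays stood above all others.

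The MHC class II genes, which present peptides to CD4 T cells, were higher in adipose macrophages. Of 14 genes, 10 were called higher and none lower, with a median of 2.99. H2-Eb1, a beta chain, was at 14.61 and 14.58 on the adipose arrays and 7.71 on the BMDM array, 118-fold higher (difference 6.88, SE 0.28, adjusted p = 9.5e-06). H2-Ab1 was at 15.04 and 15.14 against 8.94, 71.3-fold higher, and H2-Aa, an alpha chain, at 12.96 and 13.18 against 6.93, 70.3-fold higher. Cd74, the invariant chain that escorts these molecules, was at 15.27 and 15.38 against 9.59. Ciita, the coactivator that controls the group, was at 9.79 and 9.76 against 4.59, not detected, at least 12.2-fold higher.

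The chaperone H2-DMa (12.18 and 12.28 against 9.16) and the costimulator Cd86 (12.89 and 12.84 against 8.69) were also called higher. Cd80, the other CD28 ligand, was at 8.82 and 8.82 against 9.05, and Cd40 at 9.44 and 9.60 against 9.44, neither of them called. Against the mean of the other tissues, 12 of the 14 were called lower in BMDM and 1 higher, and in adipose macrophages 7 were called higher and 4 lower. Dendritic cell markers were higher on the same adipose arrays, as given above, and their part was not tested.

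The class II promoters are shown because these genes differed together and share a known element. Each run is the 250 bases before the gene's start in RefSeq (GRCm38.p6), on the gene's own strand, and capitals mark CCAAT, the box bound by NF-Y, on either strand. H2-Eb1 lies on the plus strand at chr17:34305617-34305866, and H2-Aa on the minus strand at chr17:34287824-34288073.
H2-Eb1: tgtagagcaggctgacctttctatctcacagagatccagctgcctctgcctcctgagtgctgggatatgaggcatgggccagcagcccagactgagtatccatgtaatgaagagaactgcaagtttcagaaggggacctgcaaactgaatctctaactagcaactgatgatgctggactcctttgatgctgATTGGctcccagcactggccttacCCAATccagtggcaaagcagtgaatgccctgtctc
H2-Aa: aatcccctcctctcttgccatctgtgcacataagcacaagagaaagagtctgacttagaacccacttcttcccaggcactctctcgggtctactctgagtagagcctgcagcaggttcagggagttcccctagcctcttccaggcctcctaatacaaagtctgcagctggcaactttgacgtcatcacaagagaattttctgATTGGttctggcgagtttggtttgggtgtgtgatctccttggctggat
The H2-Eb1 window holds 2 matches and the H2-Aa window 1. Of the 14 class II genes, 9 had a promoter in the table, and 7 of these held CCAAT on either strand, against 37.5% of 27025 genes. A match describes the letters and not a bound site.

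Complement genes were mostly higher, with 9 of 12 called higher and 2 lower. Vsig4, a receptor for complement fragments on resident macrophages, was at 11.46 and 11.45 against 4.85, not detected, at least 38.9-fold higher. C2, a protease of the classical pathway, was at least 10.8-fold higher. The 3 chains of C1q, which tags dying cells, were higher by 1.77 (C1qa), 1.00 (C1qb) and 1.22 (C1qc). Cd59a, an inhibitor of the lytic complex, and C5ar1, the C5a receptor, were lower by -2.58 and -2.45, and C5ar1 lost its call under some settings.

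Chemokines changed in both directions, 11 of 21 higher and 8 lower. Ccl8, a ligand of CCR8 in mice, was at 11.93 and 12.07 against 5.00, not detected, at least 57.0-fold higher, and Cxcl12, the ligand of CXCR4, was at 11.53 and 11.48 against 4.64, at least 40.2-fold higher. Cxcl12 is also made by stromal cells, whose markers were higher on the same arrays. Its receptor gene Cxcr4 was at 11.90 and 11.90 against 9.50. The CCR2 ligands Ccl2 (8.45 and 8.68 against 12.47) and Ccl7 (11.78 and 11.85 against 14.80) were lower, as were Ccl4 and Ccl5, by -2.34 and -3.07. Ccr2 itself was at 6.82 and 6.49 against 6.62 and was not called.

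Of 13 cytokines and inflammatory regulators, 3 were higher and 5 lower. Il10, an anti-inflammatory cytokine, was at 9.27 and 9.42 against 5.97, at least 9.00-fold higher. Il1b, an inflammatory cytokine, was at 8.97 and 9.19 against 5.21, at least 7.49-fold higher. Nfkbiz, a nuclear regulator of NF-kB, was at 12.62 and 12.78 against 9.20. Tnf was lower, at 8.21 and 7.99 against 10.66, along with Il1rn, the natural blocker of IL-1.

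Receptors that sense or engulf differed gene by gene. Of 19 scavenger and apoptotic cell receptors and bridging proteins, 11 were higher and 4 lower. Against the other tissues, 8 of the 19 were called higher and 10 lower in adipose macrophages, and 4 higher and 11 lower in BMDM. Cd36, a scavenger receptor for oxidized lipid, was at 9.21 and 9.31 against 4.61, not detected, at least 8.52-fold higher, and the other 7 arrays lay between 4.73 and 6.09. Adipocytes and endothelial cells express Cd36 too, and markers of both were higher on these arrays. Pros1, a bridging protein for Mertk, was at 11.50 and 11.72 against 7.57, 16.5-fold higher. Tgm2, a transglutaminase, was lower, at 8.18 and 8.21 against 12.58, and Marco by -2.57.

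Of 6 Fc receptor genes 3 were higher and 1, Fcgr1, lower. Fcgr2b, the inhibitory IgG receptor, was at 13.22 and 13.20 against 10.57, 6.25-fold higher, and Fcgr3 differed by 1.54. Of 12 Toll-like receptor genes and partners 6 were higher and 1 lower. Tlr5, the flagellin receptor, was at 11.09 and 11.17 against 5.97, not detected, at least 31.1-fold higher, and above all other arrays, which lay between 4.68 and 8.83. Tlr13, which senses bacterial ribosomal RNA, was lower, at 9.75 and 9.85 against 12.14.

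Cholesterol synthesis genes were lower in adipose macrophages. Of 17 detected, 15 were called lower and none higher, with a median of -2.01. Sqle was at 6.65 and 6.01 against 11.78 on the BMDM array. Fdps, farnesyl diphosphate synthase, was at 8.68 and 8.87 against 12.74, 15.6-fold lower (difference -3.97, SE 0.20, adjusted p = 2.0e-05). Cyp51, the lanosterol demethylase, was at 8.07 and 8.08 against 11.54, and Msmo1, a sterol oxidase, at 9.35 and 9.52 against 12.56. Srebf2, the transcription factor that drives the pathway, was at 7.94 and 7.75 against 9.57. Ebp and Sc5d were not called, at -0.25 and -0.19. Against the other tissues, 15 of 17 were called higher in BMDM and none lower, and in adipose macrophages 7 were called lower and none higher. The sterol response element core TCACNCCAC was present in 1 of 15 promoters, Hmgcs1, against 1.22% of all genes.

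Fatty acid synthesis showed the same direction, with 9 of 11 lower and 1 higher. Fasn, fatty acid synthase, was at 6.30 and 6.53 against 10.20, 13.9-fold lower, and Elovl6, an elongase, was at least 4.40-fold lower. The desaturase genes split. Scd1 was higher, at 10.47 and 10.61 against 8.65, 3.70-fold, while Scd2 was among the lowest differences of all.

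Genes of lipid-associated macrophages, a state described in the adipose tissue of obese mice, were mostly lower, 9 of 13, with 1 higher, Fabp4, which was detected on 1 adipose array only. Trem2, its lipid receptor, was at 11.003 and 11.109 against 12.482, and Mmp12, macrophage elastase, was at least 15.7-fold lower. Lpl, lipoprotein lipase, differed by -0.90, and Plin2, which coats lipid droplets, was not called at -0.21. Of the 13 lipid-associated genes, 9 were called higher in BMDM than in the other tissues and none lower. In adipose macrophages 5 were called higher than in the other tissues and 2 lower. Genes of lipid uptake, storage and efflux were divided, 6 higher and 6 lower of 17, or 6 and 9 with the brightness set as a block. Apoe was at 14.81 and 14.97 against 12.19, 6.50-fold higher, and Pltp, which transfers phospholipids between lipoproteins, at 12.79 and 12.97 against 9.67, 9.26-fold higher. Abcg1, an exporter of cholesterol, was lower by -1.18. Pparg, a lipid-activated nuclear receptor, was at 8.49 and 8.81 against 9.32 and was not called (adjusted p = 0.065).

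Glycolysis genes were lower, 10 of 13 with none higher and a median of -1.44. Slc2a1, the glucose transporter GLUT1, was called lower at 5.76 and 6.33 against 10.02, and was above background on only 1 of the 2 adipose arrays. Pfkp, a phosphofructokinase, was at 7.73 and 7.54 against 10.42, 6.88-fold lower, and Pkm, pyruvate kinase, at 12.38 and 12.30 against 14.17. Pfkl, Pfkm and Pfkfb3 were not called, at 0.24, 0.58 and 0.08. Against the other tissues, 10 of these genes were called higher in BMDM and 1 lower, and in adipose macrophages 2 were called higher and 5 lower. The letters ACGTG, the core of the hypoxia response element, were present in 8 of 13 promoters on either strand, against 18.5% of all genes.

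Respiratory chain genes moved less, with 1 of 22 higher and 5 lower, or 2 and 3 with the brightness set as a block, and a median of -0.28. Cyc1 of complex III and Sdhd of complex II were lower by -1.14 and -1.18, and Cox4i1, a subunit of complex IV, was not called at -0.10. Antioxidant genes were lower in 11 of 13, with Cat, catalase, higher. Slc7a11, the cystine importer, was at least 5.80-fold lower, and Gsr, glutathione reductase, was at 6.94 and 7.12 against 9.60. Gclm and Srxn1, both targets of NRF2, were lower by -2.19 and -2.41, and Nfe2l2, the gene of NRF2, by -2.16. On the other 7 arrays Gsr lay between 9.07 and 10.26, above both adipose arrays and around the BMDM value.

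Cell cycle genes were lower in adipose macrophages, with 24 of 24 detected called lower, out of 30 on the array, and a median of -2.73, or -2.60 with bounds. Ccnd1, cyclin D1, was at 10.01 and 10.22 against 13.80, 12.8-fold lower. Mcm5, part of the replicative helicase, was at 7.96 and 8.25 against 11.79, also 12.8-fold lower. Cdk1, the kinase of mitotic entry, was at 6.11 and 6.38 against 9.87, 12.3-fold lower (adjusted p = 3.3e-05). The smallest difference of the list was that of Bub1b, -1.38. The BMDM array stood above all other 9 arrays for 22 of the 24, against 22.0% of all members. In BMDM 23 were called higher than in the other tissues and none lower, and in adipose macrophages 12 were called lower and none higher.

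Interferon response genes were lower in adipose macrophages in 14 of 17, with none higher and a median of -2.08. Ifit3 was at 5.71 and 5.65 on the adipose arrays, not detected, and 10.18 on the BMDM array, at least 20.1-fold lower (adjusted p = 9.8e-06). Irf7, the factor that amplifies interferon production, was at 7.69 and 7.40 against 11.21, 12.7-fold lower. Ifit2 and Cmpk2, an antiviral effector and a mitochondrial nucleotide kinase, were at 8.29 and 8.23 against 11.75 and at 7.28 and 7.27 against 10.52. Oas2, at 9.06 and 9.16 against 8.74, Xaf1 and Stat2 were not called. Of the 17, 15 were called higher in BMDM than in the other tissues and none lower, and the BMDM array stood above all others for 13. In adipose macrophages 6 were called higher than in the other tissues and 5 lower.

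The promoter of Ifit3 is shown as that of the gene with the largest difference in this list, and capitals mark the core of the interferon-stimulated response element (GAAA, any 2 bases, then GAAA) on either strand. It lies on the plus strand at chr19:34583279-34583528 (RefSeq, GRCm38.p6), again as the 250 bases before the start.
Ifit3: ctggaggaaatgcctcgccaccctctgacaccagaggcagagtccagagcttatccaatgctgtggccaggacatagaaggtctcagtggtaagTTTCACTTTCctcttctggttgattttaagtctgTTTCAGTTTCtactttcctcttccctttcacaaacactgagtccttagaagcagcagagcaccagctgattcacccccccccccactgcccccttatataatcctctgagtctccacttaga
The window holds 2 matches, both on the opposite strand. The motif was present in 5 of the 13 list members with a promoter (Rsad2, Ifit3, Stat2, Bst2 and Trim30a), against 3.46% of all genes. The 5 include Stat2, which was not called.

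Immediate early genes, transcribed within minutes of a stimulus, were higher, 21 of 25 with none lower and a median of 2.18. Egr1, a zinc finger factor, was at 13.58 and 13.69 against 8.93, 26.2-fold higher (difference 4.71, SE 0.41, adjusted p = 0.00016). Fos and Fosb, subunits of AP-1, were at 14.06 and 14.12 against 10.54 and at 11.33 and 11.27 against 7.70, 11.6- and 12.1-fold higher. Zfp36, which destabilizes cytokine mRNAs, was at 14.50 and 14.52 against 11.45. Myc and Dusp2 were not called, at -0.79 and -0.71. Of the 25, 17 were called higher in adipose macrophages than in the other tissues and 5 lower, and in BMDM 18 were called lower and none higher. The cyclic AMP response element TGACGTCA was present in 4 of 21 promoters, against 1.77% of all genes, and the AP-1 site TGANTCA in 0 of 21, against 7.82%, both strands being searched.

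Heat shock genes did not share a direction, with 3 of 6 higher and 2 lower. The inducible Hspa1a was at 7.42 and 7.24 against 4.90, at least 2.23-fold higher, and the mitochondrial chaperone Hspd1 at 9.94 and 9.86 against 11.43, 2.87-fold lower.

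Of 28 transcription factors of macrophages, 14 were higher and 5 lower. Batf3 was at 10.53 and 10.23 against 6.96, 10.7-fold higher, and is also a dendritic cell factor. Maf, Zeb2 and Klf2 were higher by 1.89, 1.92 and 2.75. The inhibitors of DNA binding were lower, Id1 at 6.40 and 6.31 against 10.34, 15.8-fold, Id2 by -2.85 and Id3 by -1.29. Bhlhe40 was lower by -3.26. Spi1, the PU.1 factor that defines macrophages, was not called, at 10.06 and 10.16 against 9.99.

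Matrix and fibrinolysis genes split into 5 higher and 7 lower of 13. Mmp9, gelatinase B, was at 12.28 and 12.46 against 7.00, 41.2-fold higher (SE 0.50), and Mmp14, a membrane protease that activates gelatinase A, at 7.60 and 7.78 against 10.85, 8.94-fold lower. Mmp2, Timp3 and Fn1, which fibroblasts also make, were detected on the adipose arrays only, at 7.40 and 7.50, 8.19 and 8.47, and 7.56 and 7.69, on arrays where stromal markers were higher. Integrins were lower in 7 of 11 and higher in 1, Itga9. Itga6, a laminin-binding chain, was at 7.54 and 7.12 against 11.36, 16.4-fold lower, and Itgal, a chain of LFA-1, was at least 6.46-fold lower. Cytoskeletal and adhesion genes were lower in 12 of 23 and higher in 3, led by Anxa1, an annexin, at 6.67 and 7.03 against 10.51, 12.6-fold lower, and Myo1e, a myosin, 4.98-fold lower. Actb, beta-actin, was not called, at 15.48 and 15.48 against 15.54. Of the 23 cytoskeletal and adhesion genes, 17 were called higher in BMDM than in the other tissues and 3 lower. In adipose macrophages 12 were called higher than in the other tissues and none lower.

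Heme and iron genes were called in both directions, 7 of 18 higher and 6 lower, and with the brightness set as a block 7 and 3. Trf, transferrin, was at 13.71 and 13.91 against 9.60, 18.5-fold higher, and was detected on all other arrays at 12.30 to 14.32. Cp, the ferroxidase ceruloplasmin, was at least 4.73-fold higher. Slc40a1, the iron exporter ferroportin, was at 13.95 and 14.01 against 12.14, 3.57-fold higher. Hmox1, which degrades heme, was at 14.24 and 14.35 against 14.18 and was not called. Erythroid transcripts were higher on the same adipose arrays, as given above.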

How the data were processed

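RNA was cleaned on RNeasy micro columns including DNase treatment, and biotin-labelled cRNA was made from it, per the labels' protocols. The main table, deposited by the authors without normalization between arrays, holds linear intensity values, and beside each of them a detection p-value, per the file headers. A further deposited table of linear intensity values ran from 83.43 to 42859.4 over the arrays, with nearly equal array medians of 118.1 to 118.3. Details of its normalization were not stated. That table was used as an alternative only.

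The deposited intensities were corrected for background and brought to common quantiles by neqc, which reads the detection p-values (limma 3.58.1 in R 4.3.3, offset 16), and then converted here to log2 values. Tables were handled with Python 3.11.15 and pandas 2.3.3. In the platform annotation 29976 probes had 1 gene symbol, 10 had several and 16646 had none, and 29921 could be matched to RefSeq's gene table (GRCm38.p6). Each gene was represented by its brightest probe, judged by the mean of the 10 arrays, and other probes were kept singly. All transcripts detected at p under 0.01 on any of the 10 arrays entered 1 limma model with a mean for each group (3 residual and 4.02 prior degrees of freedom), after the script had been tested on simulated data.

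The members and the gene lists were chosen with earlier results of these data known. The rule for named genes took the 12 highest and 12 lowest differences among genes detected on all 3 arrays, the 8 highest bounds on each side, and up to 4 called members per list. Further list members (such as Folr2, Timd4, the Cd209 genes, Ciita, Scd1 and genes that were not called) were named after their values were seen.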

Additional observations from a re-analysis of the deposited data

How the results depend on the processing

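Alternatives changed the normalization, the offset, the signal table, the detection filter, the probe rule, the arrays in the fit and an array-set term. None turned the sign of any of the 162 named genes. With every probe tested, each named gene was still read on the same probe, so that setting could not turn a sign. Nor could the detection filters, or leaving out X and Y genes or arrays of other tissues, which left each named gene's difference unchanged. Leaving out 1 adipose array could not either, since both arrays lay on the same side of BMDM for every called gene. Only the normalization, the offset, the signal table and the array-set term could turn a sign. Other probes of a gene did turn it, as for Gsn (1.30 against -4.72) and Ctsa (-0.69, not called, against 3.79). Of 2747 named gene values under 17 other settings, 2708 kept their call and 39 lost it, in 8 genes (Alas2, Atp5c1, C5ar1, Ccrl2, Csf3r, Ms4a6c, Sdhb and Uty). With the array set as a block, 4 of them lost the call (adjusted p = 0.056 for Ccrl2, 0.40 for Csf3r, 0.052 for Atp5c1 and 0.052 for Ms4a6c). Leaving out 1 array at a time gave 2279 to 4142 transcripts higher and 1638 to 3335 lower. The number of pan-macrophage genes called lower was 4, but 8 without background correction, 8 with the authors' values and 3 to 7 with 1 array left out. Testing every probe gave 3828 higher and 3490 lower of 13856 probes, and the 3 arrays alone gave 4096 and 3278. Scaling to equal medians in place of quantiles moved the median of all members from 0.11 to -0.00, a shift of -0.11, and left 2388 higher and 2435 lower, so that lower calls outnumbered higher ones there, against 3256 and 2496 with quantiles.

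No paired analysis was possible because there was 1 BMDM array and the labels link no adipose array with it. Signals near the lowest detected level limit what can be said of weak genes, and the unreplicated BMDM array, its sex-linked genes and its brightness set cannot be told apart from the culture. Each group's differences from the other tissues share those 7 arrays. No group held 4 or more arrays, so none was examined for outlying arrays.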

Other observations

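Circadian genes, which were not described above, were mostly higher in adipose macrophages, 7 of 10 with 1 lower. Arntl, the clock activator BMAL1, was at 8.56 and 8.88 on the adipose arrays and 5.15, not detected, on the BMDM array, at least 5.86-fold higher (limma adjusted p = 9.7e-05). Per1, a repressor of the clock, was at 8.89 and 8.92 against 7.01, 3.72-fold higher. Nr1d2, one of the REV-ERB receptors, was the exception, at 7.83 and 7.80 against 9.61, while its relative Nr1d1 was at 7.47 and 7.58 against 4.93. The labels do not give the time of day of collection.

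Of 14 cathepsin and other lysosomal genes, 7 were higher and 3 lower (Ctsd, Ctss and Gusb, a glucuronidase). Ctsf was at 9.95 and 9.98 on the adipose arrays and 5.28, not detected, on the BMDM array, at least 13.9-fold higher. Ctsa was at 14.05 and 14.30 against 10.39, 13.8-fold higher, by its brightest probe only. Another Ctsa probe, detected on all 3 arrays, was at 10.44 and 10.43 against 11.13 and was not called, and a further one differed by 0.79. Among the Ms4a membrane proteins, Ms4a8a was at 9.96 and 10.19 against 4.55, at least 14.96-fold higher, whereas Ms4a7 was at 11.63 and 11.24 against 13.35, 3.78-fold lower. Of the growth factors, Pdgfc was at 8.56 and 8.68 against 4.89, at least 5.47-fold higher, and Vegfa, which drives vessel growth, was called lower at 5.61 and 6.01 against 9.22, with only 1 adipose array above background.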
